A study of Mus musculus with 4 samples.

Results

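Laminins are cross-shaped proteins of 3 chains (alpha, beta and gamma) that form the scaffold of the basement membrane under epithelial cells. Epithelial cells hold on to them through integrins, which are pairs of an alpha and a beta subunit, and the integrin of alpha6 (Itga6) with beta4 (Itgb4) anchors hemidesmosomes to keratin filaments. In the pancreas these proteins mark the contact of duct and acinar cells with their basement membrane, and Itgb4 is used as a marker of duct cells. Described here are 8 genes of this contact: the integrin subunits Itgb4, Itga6 and Itga3, the tetraspanin Cd151, the cytoskeletal linker Plec, and the laminin chains Lama3, Lama5 and Lamb3. Each was read from the array row annotated with that symbol alone, and all 8 were measured, among 22180 genes in all.

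The mice were 8 weeks old and came from 2 genotypes, Ifrd1 null (n = 2) and wild type (n = 2). Both genotypes received cerulein, an analog of cholecystokinin that over-stimulates acinar cells and causes pancreatitis, by intraperitoneal injection at 100 µg/kg, 6 times a day on alternate days, and pancreas tissue was taken on day 5. Every value therefore compares injured tissue with injured tissue. How the null allele was made, and in which cells Ifrd1 was lost, is not given in the labels. The values are the authors' log2 levels per array, 1 array per sample, and 1 unit is a doubling.

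Ifrd1 itself was at 6.99 and 7.09 in the Ifrd1 null arrays, against 9.04 and 9.07 in the wild-type arrays, so all 4 arrays matched their labels. Xist, which coats the inactive X, was at 10.2 and 9.58 in Ifrd1 null, against 2.56 and 3.54 in wild type. The Y-linked gene Uty was at 2.25 and 2.36 in Ifrd1 null and at 6.41 and 6.40 in wild type. The sex of the mice is not in the labels, and genotype and the sex read from these genes cannot be told apart here. None of the 8 members lies on X, on Y or on the chromosome of Ifrd1 in RefSeq (0 members). Some genes of a list of 13 intestinal markers were high in wild type 1, such as Lgals4 at 7.24 in it, against 4.31 in wild type 2. Others were not: Cdx2 was at 3.77 in wild type 1 and 3.88 in Ifrd1 null 1, and Apoa1 at 4.24 and 4.40. Fabp1, at 2.69 in wild type 1, lay below the median of that array (4.11). The source of these transcripts was not tested. Arrays correlated with r between 0.986 and 0.991 across genes, which are not independent replicates. In whole tissue, fewer cells of a type and less RNA per cell cannot be told apart.

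Of the 8 members, 6 were lower in both Ifrd1 null arrays than in both wild-type arrays: Itgb4, Itga3, Cd151, Plec, Lama5 and Lamb3. The other two, Itga6 and Lama3, differed by 0.06 each between the group means (log2). Lower groups without overlap were found for 19.7% of all genes, and for 29.1% of genes above the median level, among which all 8 members fall. The median difference of the members was -0.29 (Ifrd1 null minus wild type), against -0.01 over all genes and -0.07 over genes above the median level. The members were chosen with earlier results of these data known. No member passed the threshold over all genes (0 of 8; limma, Benjamini-Hochberg adjusted p from 0.721 to 0.896), where 1 gene of 22180 passed (0.00451%). That gene was the Y-linked Uty (limma adjusted p = 0.0206). Ifrd1, lower in both null arrays, did not pass (limma adjusted p = 0.138). At unadjusted p under 0.05 there were 2 members, Itgb4 and Cd151, both lower, where 3.63% of all genes and 5.41% of genes above the median level were lower at that p. No member was higher at that p (0 of 8), against 3.27% of all genes. Genotype differences of the members are therefore described below with their intervals. Other genes are given with an SE or their array values, and no difference is called. With 2 arrays against 2 an exact permutation test cannot go below p = 0.333.

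**Figure D1:**
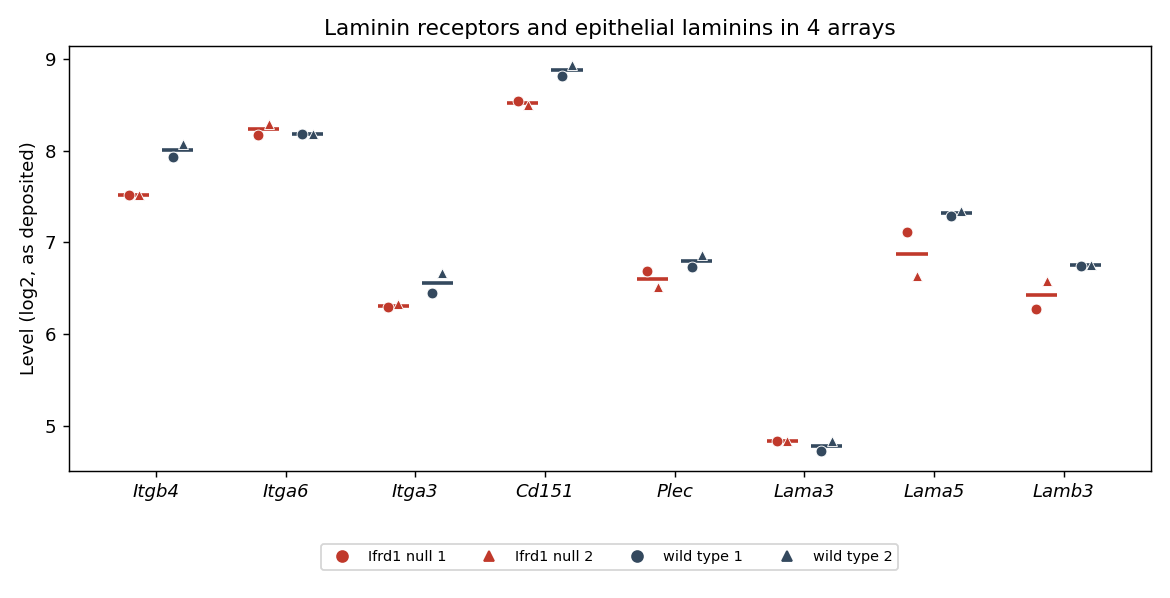
Level of each of the 8 genes in every array (log2 values as deposited), with Ifrd1 null in red left of wild type in dark grey. Circles are replicate 1, triangles replicate 2 and bars are group means. Itgb4 stood at 7.51 and 7.52 in Ifrd1 null, against 7.94 and 8.07 in wild type, while the Itga6 points of both genotypes lay together.

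The receptors come first. Itgb4, the beta4 subunit that binds the hemidesmosome to the keratin cytoskeleton, was at 7.51 and 7.52 in the Ifrd1 null arrays, against 7.94 and 8.07 in the wild-type arrays. The null arrays were nearly alike, and the gap to the nearest wild-type array was 0.42 on the log2 scale. The group means were 7.51 ± 0.0027 in Ifrd1 null and 8.00 ± 0.097 in wild type (SD), a difference of -0.49 ± 0.11 (log2, SE), which is 1.40-fold lower. Its 95% interval ran from -0.78 to -0.20. By unadjusted limma p (0.00864) Itgb4 ranked within the lowest 0.780% of all genes, and its adjusted p over all genes was 0.721.

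Itga6, the alpha6 subunit and the only known partner of beta4, did not follow it. It was at 8.17 and 8.30 in Ifrd1 null, against 8.18 and 8.18 in wild type, and the groups overlapped. The difference was 0.06 ± 0.11 (log2, SE; 95% interval -0.23 to 0.34), an interval that still holds changes of both signs. Itga6 also pairs with beta1 and is made by endothelial cells, so its level in whole pancreas is not that of the alpha6-beta4 pair alone. Relative to Itga6 in the same array, Itgb4 was lower by 0.49 in Ifrd1 null 1 and by 0.61 in Ifrd1 null 2 than the wild-type mean. The wild-type arrays themselves lay 0.07 to either side of that mean. This shift between the partners was -0.55 over both null arrays, with an exact permutation p of 0.333, the smallest the design allows. It was not particular to Itgb4. Relative to Itga6, Cd151 shifted by -0.42 and Itga3 by -0.31, each with the same exact permutation p of 0.333. The pair of Itgb4 and Itga6 was chosen for comparison after its values were seen.

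Itga3 encodes the alpha3 subunit, which pairs with beta1 to bind laminin-332 and laminin-511. It was at 6.29 and 6.33 in Ifrd1 null, against 6.45 and 6.67 in wild type, and both null arrays lay below both wild-type arrays. The gap between the groups was 0.12, smaller than the distance between the wild-type arrays. The difference was -0.25 ± 0.12 (log2, SE; 95% interval -0.58 to 0.08), and -0.14 without wild type 2.

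Cd151, a tetraspanin that binds alpha3 and alpha6 integrins and stabilises them at the basal membrane, was at 8.54 and 8.50 in Ifrd1 null, against 8.82 and 8.93 in wild type. Both pairs were tight, and the gap of 0.28 between the groups was wider than either spread. The difference was -0.36 ± 0.11 (log2, SE; 95% interval -0.64 to -0.07), 1.28-fold lower. Its unadjusted limma p was 0.0244, and its adjusted p over all genes 0.721.

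Plec, the plakin that ties integrin beta4 to keratin filaments, was at 6.69 and 6.52 in Ifrd1 null, against 6.73 and 6.87 in wild type. The groups did not overlap, but Ifrd1 null 1 lay within 0.04 of wild type 1. The difference was -0.20 ± 0.12 (log2, SE; 95% interval -0.53 to 0.13). It was -0.11 without Ifrd1 null 2, -0.13 without wild type 2, -0.13 with quantile normalization and -0.12 with cyclic loess normalization.

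**Figure D2:**
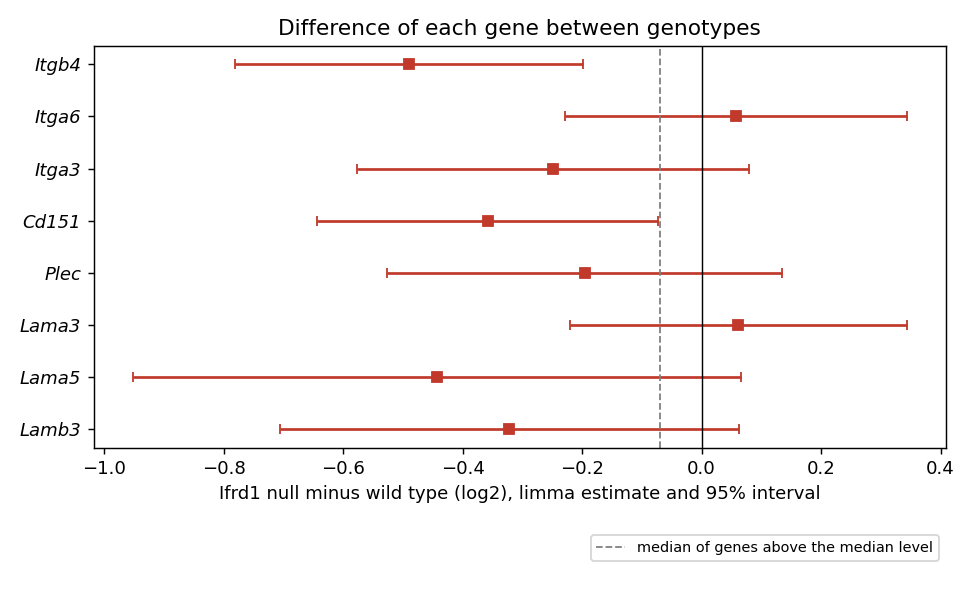
Difference of each gene between genotypes (Ifrd1 null minus wild type, log2), with limma's estimate as a square and its 95% interval as a bar. The dashed line is the median of genes above the median level (-0.07). Only the intervals of Itgb4 (-0.78 to -0.20) and Cd151 (-0.64 to -0.07) lay wholly below 0 among these 8.

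The laminin chains differed among themselves. Lama5, the alpha chain of laminin-511 and laminin-521, was at 7.12 and 6.64 in Ifrd1 null, against 7.29 and 7.35 in wild type. The wild-type arrays were close and the null arrays far apart, with Ifrd1 null 2 the lowest. The difference was -0.44 ± 0.19 (log2, SE; 95% interval -0.95 to 0.07), -0.68 without Ifrd1 null 1 and -0.20 without Ifrd1 null 2, so its size rested on that array.

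Lamb3, the beta chain found in laminin-332, showed the opposite order of the null arrays. It was at 6.27 and 6.58 in Ifrd1 null, against 6.75 and 6.75 in wild type, and here Ifrd1 null 1 was the lower. The difference was -0.32 ± 0.14 (log2, SE; 95% interval -0.71 to 0.06), -0.17 without Ifrd1 null 1 and -0.48 without Ifrd1 null 2. Relative to Lama5, Lamb3 was lower by 0.27 in Ifrd1 null 1 and higher by 0.52 in Ifrd1 null 2 than the wild-type mean, so the order of the null arrays differed between these chains. The pair was chosen after its values were seen, and its exact permutation p was 1.

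Lama3, the alpha chain that joins Lamb3 in laminin-332, was listed at 4.84 in both Ifrd1 null arrays, against 4.72 and 4.83 in wild type. Its null values were identical to the last deposited digit, as were those of 1516 genes in at least 1 genotype, so its spread is not measured there. The difference was 0.06 ± 0.11 (log2, SE; 95% interval -0.22 to 0.34), 0.012 with arrays centred on their medians, 0.0064 without wild type 1 and 0.12 without wild type 2. It was the member without overlap in the upward direction (1 of 8, against 16.1% of all genes). Its level lay above the median over all rows of each array (4.08 to 4.15), as did every other member's.

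Promoter windows were read for Cd151, Itga3, Lama5 and Lamb3 (4 of the 8 genes, with 7 start sites). Itgb4, Itga6 and Plec had no promoter entry, and the promoter of Lama3 is not reported here. Shown are the 250 bases before a start of Cd151 (chr7:141467112-141467361, + strand), Itga3 (chr11:95076715-95076964, - strand) and Lama5 (chr2:180225860-180226109, - strand), from RefSeq on GRCm38.p6, 5′ to 3′. They were chosen, after the search, as windows that hold the GC box, the motif bound by Sp1-type factors, and its letters GGGCGG on either strand are in capitals.
Cd151: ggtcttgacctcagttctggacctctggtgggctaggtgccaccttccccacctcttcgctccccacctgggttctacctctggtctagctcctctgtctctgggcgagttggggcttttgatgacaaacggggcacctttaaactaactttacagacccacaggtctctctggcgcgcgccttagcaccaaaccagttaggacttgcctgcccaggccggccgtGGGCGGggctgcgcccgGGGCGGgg
Itga3: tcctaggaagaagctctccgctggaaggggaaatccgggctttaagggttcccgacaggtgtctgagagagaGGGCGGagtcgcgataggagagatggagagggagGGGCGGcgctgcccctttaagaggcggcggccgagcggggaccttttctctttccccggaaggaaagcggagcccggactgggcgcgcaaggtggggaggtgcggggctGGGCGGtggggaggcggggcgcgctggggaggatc
Lama5: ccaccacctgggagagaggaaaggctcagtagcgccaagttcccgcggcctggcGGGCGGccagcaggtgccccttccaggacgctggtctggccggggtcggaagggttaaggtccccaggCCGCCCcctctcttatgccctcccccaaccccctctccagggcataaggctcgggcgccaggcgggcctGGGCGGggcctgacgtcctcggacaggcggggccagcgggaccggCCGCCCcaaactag
The GC content of these windows was 62.4% for Cd151, 67.6% for Itga3 and 72.4% for Lama5, against a median of 52.4% over all promoter windows. Windows that hold this motif are richer in GC by that choice. The other window of Itga3 had a GC content of 50.8% and 1 GC box, and the other window of Cd151 had 58.0% and none. The Cd151 window held 2 GC boxes, the nearest opening 8 bases before the start, the Itga3 window 3 and the Lama5 window 4. GC boxes were present in 4 of the 7 windows of these genes and in 32.7% of all 32851 windows. Neither window of Lamb3, which was also lower in Ifrd1 null, held one. The AP-1 motif TGANTCA (6.75% of all windows) and the TATA box TATAAA (12.4%), searched on both strands, had no match in the 7 windows (0 windows each), so no motifs overlapped. These matches are a description of the letters, and factor binding was not measured.

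Further array rows carried parts of these genes together with a second gene and were kept out of the levels above. A row annotated to both Itgb4 and B230344G16Rik was at 3.94 and 4.09 in Ifrd1 null, against 4.35 and 3.76 in wild type, with overlapping groups near the array medians. A row annotated to both Plec and Parp10 was at 5.97 and 5.67 in Ifrd1 null, against 5.66 and 5.84 in wild type, and it overlapped as well. Neither row showed the difference seen in the row of Itgb4 or Plec alone, and which transcripts they read is not known here.

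**Figure D3:**
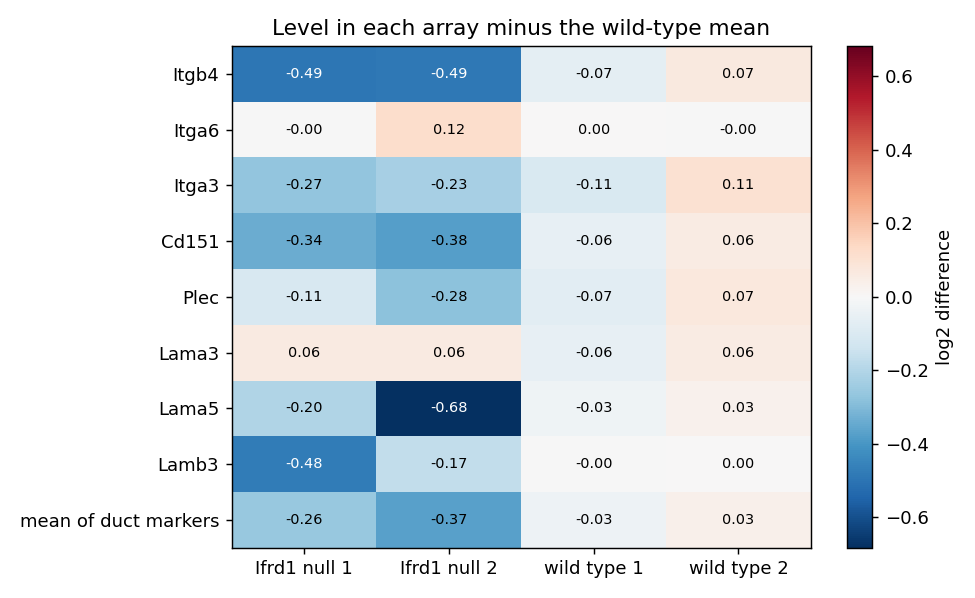
Level of each gene in each array minus its wild-type mean (log2, colour and number), with the mean over 14 duct markers in the bottom row. Itgb4 was at -0.49 in both null arrays, while Lama5 was lowest in Ifrd1 null 2 (-0.68) and Lamb3 in Ifrd1 null 1 (-0.48).

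Among 11082 other genes above the median level, those whose pattern over the 4 arrays lay nearest to that of Itgb4 were Traf4, Cyp3a13 and Shisa4. Likeness was the Euclidean distance between levels centred on each gene's own mean, and these distances were 0.019, 0.0397 and 0.0457. Traf4, an adaptor protein of the TRAF family, was at 6.94 and 6.94 in Ifrd1 null, against 7.38 and 7.52 in wild type. The nearest member was Cd151 at a distance of 0.137, followed by Itga3 at 0.249, and the farthest were Lama3 at 0.552 and Itga6 at 0.562. How many of the other genes lay nearer to Itgb4 than Cd151 did was not counted. The order is a description over 4 arrays.

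Most duct markers were lower with the members. Of 17 listed markers 14 were measured, 13 of them lower in Ifrd1 null and 8 lower without overlap. Lower groups without overlap were found for 19.7% of all genes and 29.1% of genes above the median level. An unadjusted limma p under 0.05 was found for 7 of the lower markers. Counts in this and the other marker lists stand against all genes, of which 47.2% were higher in Ifrd1 null and 3.63% lower at that p. Among genes above the median level 32.6% were higher and 5.41% lower at that p. The median difference of the duct markers was -0.37, and none passed over all genes (0 of 14). Krt19, a duct keratin, was at 7.59 and 7.39 in Ifrd1 null, against 8.11 and 8.05 in wild type. Cftr, the chloride channel of duct cells, was at 4.69 and 4.54 in Ifrd1 null, against 5.14 and 5.07 in wild type. The list also holds Krt8, Krt18, Cdh1 and Muc1, which acinar cells express too, and Sox9, a duct transcription factor, went the other way at 0.19 ± 0.23 (log2, SE). Summed on the linear scale, the list was at 6197 and 6279 in Ifrd1 null, against 7427 and 7916 in wild type. Without Muc1, the brightest of the list, the other 13 markers summed to 4405 and 3985 in Ifrd1 null, against 5207 and 5635 in wild type.

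Measured against the mean log2 level of these 14 markers in the same array, Itgb4 was lower by 0.23 in Ifrd1 null 1 and by 0.12 in Ifrd1 null 2 than the wild-type mean. On that scale the difference of Itgb4 was -0.18, that of Lama5 -0.13, that of Cd151 -0.04, that of Itga3 0.07 and that of Plec 0.12. Lamb3 averaged -0.0075, with Ifrd1 null 1 at -0.22 and Ifrd1 null 2 on the opposite side at 0.20. Itga6 stood at 0.37 and Lama3 at 0.38. The part of duct cell number in the members' differences was not tested.

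Endothelial markers, of cells that also make Itga6 and Lama5, summed to 838 and 790 in Ifrd1 null, against 997 and 946 in wild type, with 8 of 10 lower and a median of -0.15. Among the 10, 6 were lower without overlap, 3 were lower at unadjusted limma p under 0.05, and 2 were higher. Plvap, with the smallest p of them, was at -0.60 ± 0.15 (log2 difference, SE). Stellate cell and fibroblast markers (7 of 10 lower) summed to 10398 in Ifrd1 null 1 and 6457 in Ifrd1 null 2, against 8752 and 8592 in wild type. Macrophage markers (6 of 6 lower, median -0.31) split the null arrays the same way, at 3581 and 2200, against 3225 and 3550 in wild type. Acinar markers (6 of 9 lower) summed to 42887 and 55132 in Ifrd1 null, against 48836 and 49312 in wild type. Smooth muscle markers (624 and 458 in Ifrd1 null, 706 and 468 in wild type) were highest in wild type 1. Adipocyte markers (523 and 210 in Ifrd1 null, 247 and 316 in wild type) were highest in Ifrd1 null 1. The intestinal list summed to 1675 and 2084 in Ifrd1 null, against 2034 and 1664 in wild type, and the peptidase gene Anpep made up most of each sum. Without Anpep the other 12 markers summed to 166 and 178 in Ifrd1 null, against 465 in wild type 1 and 186 in wild type 2. Of the 13 markers, 5 lay below the median of every array and 5 were lower in Ifrd1 null without overlap: Vil1 (-0.97 ± 0.25), Slc5a1 (-0.59 ± 0.17), Agr2, Cdh17 and Lgals4 (log2 difference, SE). Lower groups without overlap were found for 19.7% of all genes and 29.1% of genes above the median level. Another 6 of the 13 were higher in Ifrd1 null, 1 of them without overlap (Cdx2), as were 16.1% of all genes. With wild type 1 left out, Itgb4 was at -0.56, Cd151 at -0.41, Lama5 at -0.47 and Lamb3 at -0.32 (Ifrd1 null minus wild type, log2). Schwann cells and keratinocytes are other cells that use alpha6-beta4. Of 5 measured Schwann cell markers, Cdh19 and S100b lay below the median of every array, while Ncam1 and Mbp lay above it in every array and made up most of the sum. Of 5 measured keratinocyte markers, Krt14, Krt1 and Ivl lay below the median of every array. The sums were 164 and 134 in Ifrd1 null against 144 and 138 in wild type for Schwann cells, and 73.4 and 79.2 against 67.4 and 67.1 for keratinocytes. Mesothelial markers (5 of 6 higher) summed to 731 and 554 in Ifrd1 null, against 693 and 690 in wild type, and the brightest was Krt19, also a duct marker. Without Krt19 the other 5 summed to 539 and 386 in Ifrd1 null, against 417 and 425 in wild type. T and NK cell markers (7 of 7 higher, median 0.27) summed to 352 and 238 in Ifrd1 null, against 228 and 256 in wild type. Thy1, the brightest of them, is also in the stellate cell and fibroblast list. The part of any of these cell types in the members' differences was not tested.

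Counts of lower genes in the lists that follow stand against all genes, of which 47.2% were higher in Ifrd1 null, and genes above the median level, of which 32.6% were higher. At unadjusted limma p under 0.05, 3.63% of all genes and 5.41% of genes above the median level were lower. The other laminin chains showed no common direction. Of 8 listed, 7 were measured, 5 lower and 2 higher in Ifrd1 null, with a median of -0.15. Lamc1, the gamma chain of most laminins and the brightest of the list, was at 7.85 and 7.51 in Ifrd1 null, against 7.72 and 7.96 in wild type, and the groups overlapped. Lama2, the alpha chain of muscle and nerve laminin, was at -0.38 ± 0.11, and Lamc3 at 0.42 ± 0.11 (Ifrd1 null minus wild type, log2, SE), both with unadjusted p under 0.05 and in opposite directions.

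Of 15 other basement membrane genes, all measured, 11 were lower and 3 of these had an unadjusted p under 0.05, with a median of -0.12. Nid1, the nidogen that links laminin to collagen IV, was at 9.32 and 9.13 in Ifrd1 null, against 9.69 and 9.55 in wild type, with no overlap. Ntn4, a netrin that binds laminin, was at -0.42 ± 0.11 and the collagen chain gene Col4a2 at -0.40 ± 0.12 (log2 difference, SE). Hspg2, which encodes perlecan and was chosen after its values were seen, was at -0.12 ± 0.19 with overlapping groups.

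Of 9 other receptors for laminin, 7 were lower and 0 had an unadjusted p under 0.05, with a median of -0.14. Rpsa, the ribosomal protein also known as the laminin receptor, was at -0.20 ± 0.11 and Dag1, dystroglycan, at -0.20 ± 0.12 (log2 difference, SE). Itgb1, the partner of Itga3 and chosen after its values were seen, was at 9.11 and 8.86 in Ifrd1 null, against 9.14 and 9.20 in wild type, a difference of -0.19 ± 0.13. Of 14 other integrin subunits 9 were lower and 0 had an unadjusted p under 0.05, with Itgav at -0.28 ± 0.22, Itgb5 at -0.28 ± 0.14 and Itgb6 at -0.55 ± 0.28.

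Among 6 measured genes of the hemidesmosome and the plakin family, 3 were lower and 3 higher, with a median of 0.01. Dsp, the desmosomal plakin desmoplakin, was the exception, at 8.21 and 8.23 in Ifrd1 null, against 8.53 and 8.51 in wild type, a difference of -0.31 ± 0.10 (log2, SE; limma adjusted p = 0.721). Evpl, envoplakin, was at 0.14 ± 0.13. Of 15 measured tetraspanins, the family of Cd151, 10 were lower and 1 had an unadjusted p under 0.05. That was Tspan15, at 5.95 and 6.42 in Ifrd1 null, against 6.84 and 6.69 in wild type. Cd81, the brightest of them, was at -0.25 ± 0.16 and Tspan6 at -0.27 ± 0.16.

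Of 15 measured adhesion proteins that act on the inner side of integrins, 10 were lower and 0 had an unadjusted p under 0.05, with a median of -0.08. Vcl, vinculin, was at -0.08 ± 0.18, Lims1 at -0.27 ± 0.12 and Fermt1, the epithelial kindlin, at -0.33 ± 0.15 (log2 difference, SE). The medians of these 7 related lists lay between -0.16 and 0.01, against -0.29 for the 8 members. A difference between these lists and the members was not tested, and both were chosen with earlier results of these data known.

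**Figure D4:**
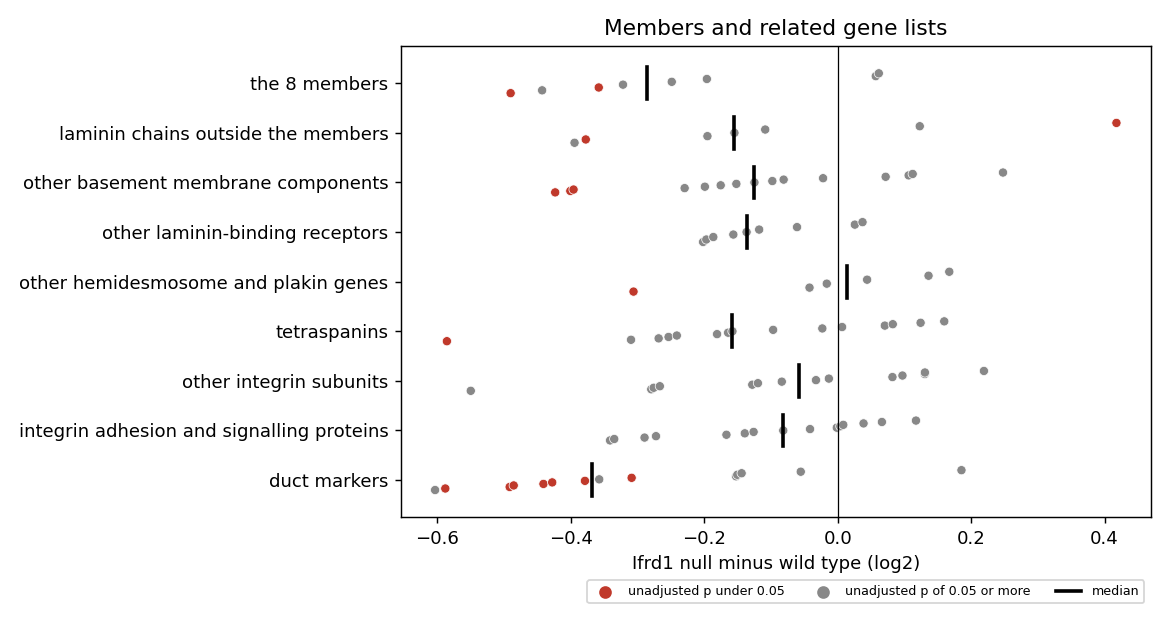
Difference between genotypes (Ifrd1 null minus wild type, log2) for the 8 members, 7 related gene lists and the duct markers. Points are genes, red where the unadjusted limma p was under 0.05, and bars are list medians. The member median was -0.29 and the duct marker median -0.37, and the other medians lay between -0.16 and 0.01. Members and lists were chosen with earlier results of these data known.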

How the data were processed

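Per the labels' protocols, total RNA of pancreas tissue was Trizol-extracted, labelled with biotin and read on Affymetrix arrays. The authors deposited 1 value per array and transcript cluster, read here as log2 from their range (0.218 to 13.9). The log base, background correction, probe summary and normalization are not given in the sources used here. Of 41345 rows, 23521 had 1 symbol in the platform annotation. A gene with several such rows was read from the row with the highest mean, which left 22180 genes. No detection call was used, and the number of arrays limits the precision.

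Ifrd1 null was compared with wild type with limma 3.58.1 (lmFit, eBayes) in R 4.3.3, tested on simulated data, with two-sided p-values adjusted over all genes (threshold 0.05). The labels call the samples biological replicates. Replicate numbers were not treated as pairs: the differences within the genotypes correlated with r = -0.035 across genes. The members and lists were chosen with earlier results of these data known, and 174 of 190 listed symbols were measured. Beside all members, the brightest gene and the 2 of smallest p are named from each of the 7 pathway lists. Marker lists are given as counts and summed levels, and the single markers named were chosen after their values were seen. Ifrd1 and the 3 genes most like Itgb4 are named by rule. Promoter windows and chromosomes came from RefSeq (GRCm38.p6), searched with Python 3.11.15.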

Additional observations from a re-analysis of the deposited data

How the results depend on the processing

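No member passed the adjusted threshold in any of 13 alternatives (0 members), 12 planned and 1 added after the data were seen, in which genes holding identical values were left out and Lama3 with them. Members lower without overlap numbered between 5 (cyclic loess) and 7 (without Ifrd1 null 2, where Itga6 joined them), against 6. With an array left out, groups separate more easily, so those counts are not on the scale of the 6. The share of all genes was not taken in the alternatives for this count or the next. Members at unadjusted p under 0.05 were 1 with quantile normalization, cyclic loess and the replicate block, against 2, 3 with arrays centred on their medians, and 1 to 3 with each array left out in turn, the lowest without wild type 2. Itga6 turned to -0.0041 without Ifrd1 null 2, and no other member changed sign. It was 0.12 with quantile normalization, 0.15 with cyclic loess, 0.12 without Ifrd1 null 1 and 0.01 with arrays centred on their medians. Over all genes 4 passed with quantile normalization, cyclic loess and the replicate block, 5 without genes holding identical values, with median-centred arrays or with a trended, robust eBayes, and 0 among genes above the median level or with any single array left out. Where an arm kept 1 array, it was assumed to vary like the other. The cause of these shifts was not tested.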
